A study of Caenorhabditis elegans with 9 samples.

Results

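The transcripts described here are those of 38 Caenorhabditis elegans genes that copy DNA or carry a cell through mitosis. They comprised 15 replication genes, 20 mitosis genes and 3 ubiquitin ligase genes that act on cell cycle proteins, out of 17118 genes measured on the array. The genes were taken by name, and each was represented by the probe set that matched no other gene and had the highest mean signal over the 9 arrays. All 38 had such a probe set, 59 probe sets matched them in all, and 16 genes had more than 1.

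A cell licenses its replication origins by loading the MCM helicase with the help of the origin recognition complex, CDC-6 and CDT-1, then copies its DNA on the PCNA sliding clamp, and later enters mitosis when cyclin-dependent kinase is switched on by its cyclins. In the larva the seam cells, epithelial stem-like cells that divide at each stage, and the vulval precursor cells (VPCs) respond to Wnt signals with changes in fate and division. The germline also divides in larvae and uses the same replication and mitosis genes.

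Wnt pathway overactivation was the strain deIs10; huIs1, in which the heat shock promoter hsp-16.2 drove ΔNTBAR-1, a β-catenin without the N terminus that targets it for degradation. Wnt pathway underactivation was deIs10; deIs26, in which the same promoter drove ΔNTPOP-1, a TCF protein without the N terminus that binds β-catenin. The control was the N2 strain, with neither a heat shock transgene nor a tag. The transgenes were described in a dpy-20(e1282); unc-30(e191) background with dpy-20(+) and unc-30(+) as markers. The integrated array deIs10, a single selected line, held FLAG::PAB-1, a tagged polyA binding protein under an enhancer of bar-1 used for seam cells and VPCs, together with ajm-1::gfp. Larvae of all groups were heat shocked at the molt between the L2 and L3 stages and allowed to recover, and RNA bound to the tag was coimmunoprecipitated, from N2 as well. A comparison with N2 therefore includes the tag and the strain background, whereas the comparison between the tagged strains does not include the tag. The hsp-16.2 promoter is not restricted to the tagged cells. Each group had 3 arrays, described by the methods as biological replicates, and values are log2 signals from Robust Multichip Average (RMA).

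Markers of the heat shock, of the labelled cells and of other tissues were compared between groups. The heat shock gene hsp-70 had a log2 difference of -2.86 in overactivation minus N2 (adjusted p = 0.343, limma), with N2 arrays of 5.86, 10.19 and 11.16. The differences were -0.48 for hsp-16.2 and 0.16 for hsp-16.41. The median deviation of these 3 markers from their own means was lowest on N2 replicate 2 (-1.24). The part of the heat shock in the results below was not tested. Of 10 measured markers of seam cells and VPCs, 8 had a higher mean in overactivation than in N2 (median log2 difference 1.09) and 6 had a higher mean in underactivation than in N2 (median 0.33), but none passed an adjusted p of 0.05 in limma. The seam cell transcription factor ceh-16 went the other way, with means of 3.84 in overactivation and 3.89 in underactivation, against 4.67 in N2. Of 16 germline markers, 14 had a lower mean in overactivation and 16 in underactivation than in N2 (medians -0.57 and -0.58), and none of them passed. Their log2 summed signal was 10.53 to 11.15 in overactivation and 10.35 to 10.77 in underactivation, against 11.30 to 11.68 in N2, so that neither tagged group overlapped N2. RMA gives no value of 0, so no marker could be read as absent. The germline helicase gene glh-1 averaged 8.68 in overactivation, 9.09 in underactivation and 9.70 in N2, and gld-1, for a germline translational repressor, averaged 6.08 in overactivation, 6.02 in underactivation and 7.81 in N2. The overactivation arrays of glh-1 read 9.94, 8.32 and 7.79 and overlapped N2 (9.42 to 10.03). Replicate 1 was the highest overactivation array for 12 of the 16 germline markers. The markers with a higher mean in overactivation than in N2 were him-3 (0.61) and glh-2 (0.15). Of 8 markers each, all 8 of body wall muscle (median -1.18, 2 called), 6 of neurons (median -0.30, 1 called) and 6 of intestine (median -1.25, 1 called) had a lower mean in overactivation than in N2. In underactivation 7 of the muscle (median -0.86), 7 of the neuronal (-0.31) and 6 of the intestinal markers (-0.70) had a lower mean than in N2, and none was called. The part of these tissues in the results below was not tested. As given below, probe sets with numbers beginning with 17 mostly ran more positive against N2 than the gene's sets beginning with 18 or 19. All muscle markers, and the germline markers except glh-1 and nos-3, were read on sets beginning with 18 or 19. The markers egl-18, elt-6, rnt-1, che-14, nhr-25 and lin-31 of seam cells and VPCs were read on sets beginning with 17. The part of this in the marker comparisons with N2 was not tested. N2 carried no tag, so in these comparisons fewer cells of a type, less RNA per cell and the coimmunoprecipitation itself cannot be told apart.

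None of the 38 genes was called different between any groups at an adjusted p under 0.05 (limma, Benjamini-Hochberg over all probe sets). Between overactivation and N2, 0.976% of all genes were called higher and 0.596% lower, so 38 genes would hold few such calls at the rate of the whole array. Between underactivation and N2 the rate was 0% in either direction, and between overactivation and underactivation it was 0.00584% higher and 0% lower. Without moderation of the variances no gene of the 38 was called either. At an unadjusted p under 0.05, 6 were higher and 2 lower in overactivation than in N2 (all genes 9.75% and 7.57%), 1 was higher and 3 lower in underactivation than in N2 (7.46% and 5.19%), and 5 were higher and 1 lower in overactivation than in underactivation (2.86% and 3.05%).

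The smallest adjusted p-values over the 3 comparisons were 0.0845 for plk-1 (overactivation minus N2), 0.215 for smc-4 (underactivation minus N2) and 0.571 for orc-2 (overactivation minus underactivation), all from limma. The precision was limited by the number of arrays. The half-width of the 95% interval of a difference had a median of 0.66 log2 units over the replication genes and 0.75 over the mitosis genes, with a range over both of 0.47 to 1.71. A difference smaller than its half-width could not be called here. The intervals are not adjusted for the number of probe sets, so a larger difference could also go uncalled. For plk-1 the interval of overactivation minus N2 ran from 0.40 to 1.45, and the gene was not called.

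**Figure D1:**
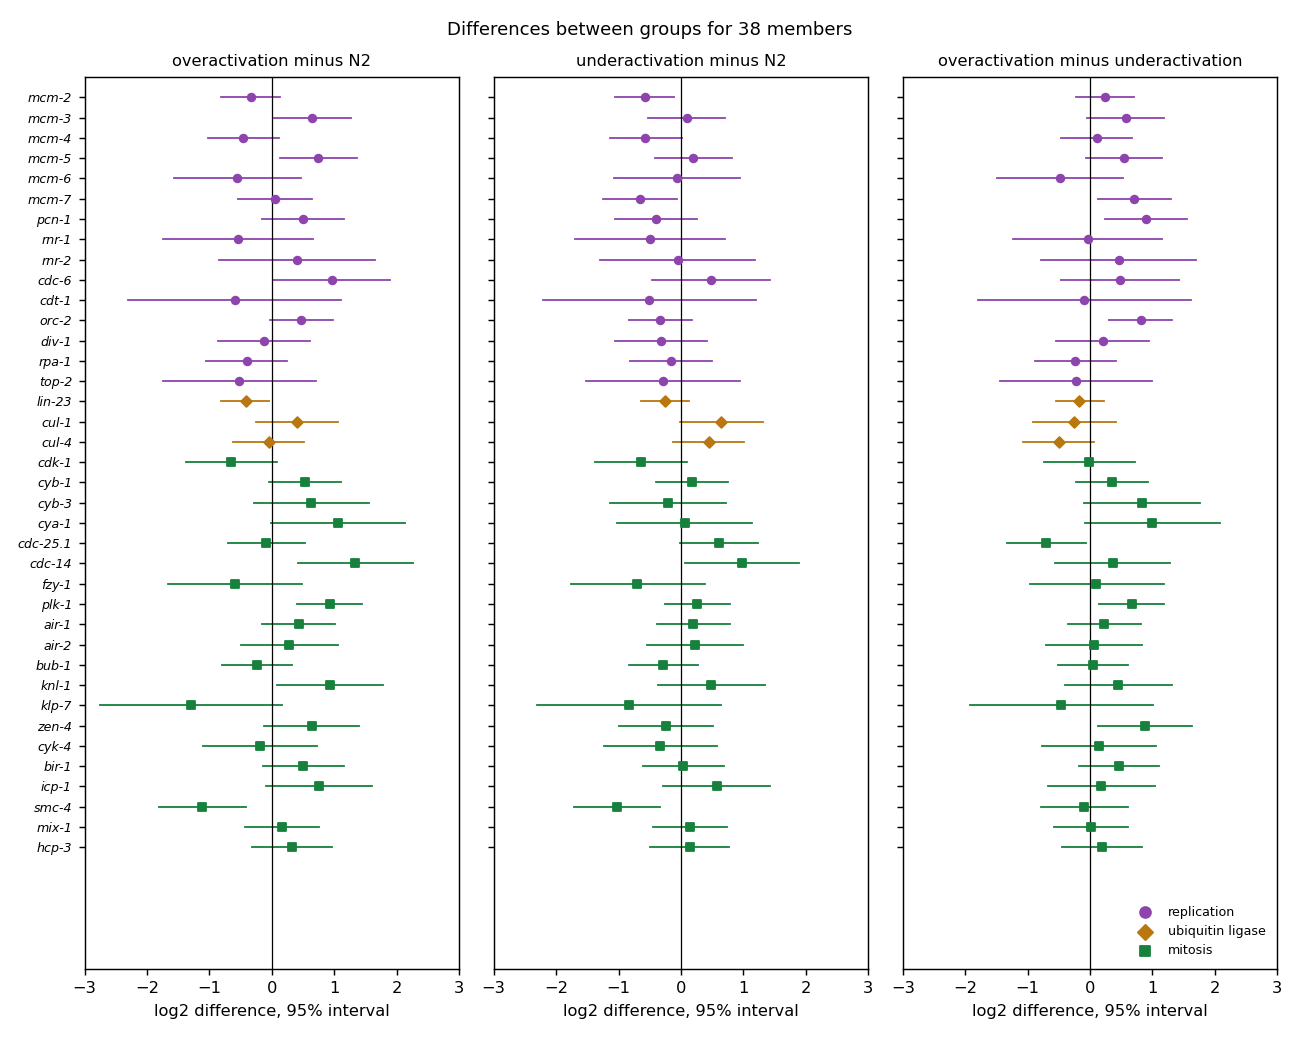
Log2 difference between group means for each of the 38 genes, by comparison, with the 95% interval from limma; circles are replication genes, diamonds ubiquitin ligases and squares mitosis genes. Most intervals include 0, and the widest belong to cdt-1 and klp-7.

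The replication genes went both ways between overactivation and N2. Their median log2 difference was -0.12, with 7 of 15 above 0 and 8 below, against a median of 0.07 over all genes, and the median size of the difference, its sign left aside, was 0.50, against 0.29 over all genes. The sign of that median turned when N2 replicate 2 (0.12), N2 replicate 4 (0.10) or overactivation replicate 1 (0.07) was left out. Between underactivation and N2 the median was -0.32, with 3 above 0 and 12 below, and over all genes it was 0.03. It was -0.09 without N2 replicate 4 and -0.14 without underactivation replicate 5. Between overactivation and underactivation 10 were above 0 and 5 below, with a median of 0.24 against 0.03 over all genes. On the brightest probe sets no replication gene had a mean difference of 2-fold or more in any comparison, whereas other probe sets of mcm-3, mcm-7 and orc-2 had lower means in underactivation than in N2, by 2.13-fold, 2.62-fold and 2.15-fold, and that of mcm-3 also in overactivation, by 2.04-fold.

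**Figure D2:**
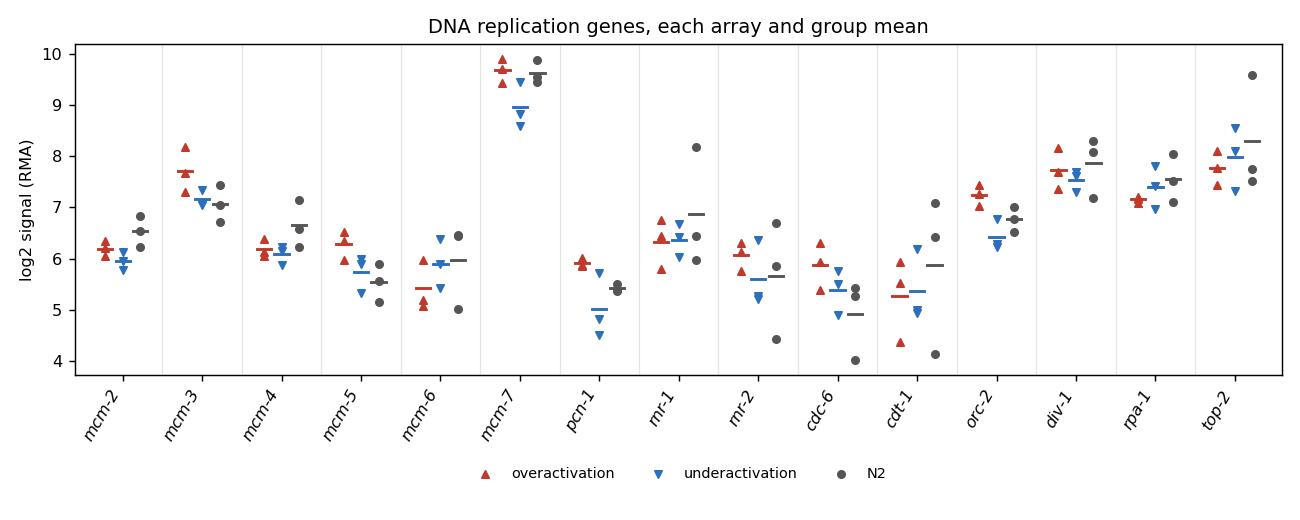
Log2 signal of the 15 replication genes on each array (points) with group means (bars): red triangles overactivation, blue inverted triangles underactivation, grey circles N2. The groups overlap for most genes, and the N2 arrays of rnr-1, rnr-2, cdt-1 and top-2 are spread widely.

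The MCM proteins form the ring-shaped helicase that opens DNA at origins. The gene mcm-5 had signals of 5.98, 6.52 and 6.35 in overactivation, 5.33, 6.00 and 5.89 in underactivation, and 5.57, 5.15 and 5.90 in N2. All overactivation arrays were above all N2 arrays, and the underactivation arrays overlapped both. The log2 difference of overactivation minus N2 was 0.74 ± 0.27 (SE), a 1.68-fold higher mean with an adjusted p of 0.192 (limma).

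The mcm-2 signals were 6.05, 6.34 and 6.20 in overactivation, 5.78, 6.14 and 5.95 in underactivation, and 6.54, 6.23 and 6.84 in N2. Underactivation lay below N2 on every array, while overactivation overlapped N2. For underactivation minus N2 the log2 difference was -0.58 ± 0.21 (adjusted p = 0.292, limma). The mean of mcm-4 was also lower in underactivation than in N2, by a log2 difference of -0.57, with overlapping arrays. The difference was -0.07 for mcm-6, whose N2 arrays ranged from 5.01 to 6.46.

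The mcm-7 signals were 9.43, 9.71 and 9.90 in overactivation, 8.83, 9.46 and 8.60 in underactivation, and 9.89, 9.45 and 9.54 in N2. Overactivation overlapped N2 throughout, and one underactivation array lay among those of the other groups. Its mean was 1.64-fold higher in overactivation than in underactivation (log2 difference 0.71 ± 0.26, adjusted p = 0.780, limma).

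For mcm-3 the brightest probe set had signals of 7.30, 7.68 and 8.18 in overactivation, 7.05, 7.35 and 7.07 in underactivation, and 7.05, 7.44 and 6.72 in N2. Its other probe set had 4.52, 5.35 and 4.65 in overactivation, 4.63, 5.39 and 4.33 in underactivation, and 6.66, 5.94 and 5.03 in N2. The brighter set gave a higher mean in overactivation than in N2 (log2 difference 0.65, adjusted p = 0.253, limma) and the dimmer set a lower one (-1.03, adjusted p = 0.271). Without overactivation replicate 4 the brighter set gave 0.42. The direction for mcm-3 between overactivation and N2 therefore depends on the probe set read.

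Among the factors that license origins, orc-2, a subunit of the origin recognition complex, had 7.02, 7.26 and 7.43 in overactivation, 6.77, 6.23 and 6.29 in underactivation, and 7.01, 6.77 and 6.52 in N2. Overactivation was above underactivation on every array, and only just above N2 at the closest pair. The log2 difference of overactivation minus underactivation was 0.81 ± 0.22, a 1.75-fold higher mean with an adjusted p of 0.571 (limma). The second probe set of orc-2 read 5.32, 5.49 and 4.85 in overactivation, 5.15, 5.32 and 4.46 in underactivation, and 7.53, 4.83 and 5.89 in N2. It gave 0.24 between overactivation and underactivation, in the direction of the brighter set, but -0.86 between overactivation and N2, where the brighter set gave 0.47.

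The licensing gene cdc-6 had 6.30, 5.93 and 5.38 in overactivation, 4.90, 5.76 and 5.50 in underactivation, and 4.03, 5.27 and 5.42 in N2. The lowest overactivation array lay below the highest N2 array, and the log2 difference of overactivation minus N2 was 0.96 ± 0.41 (adjusted p = 0.269, limma), and 0.52 without N2 replicate 2. Its partner cdt-1 had 5.94, 5.53 and 4.38 in overactivation, 5.00, 6.18 and 4.94 in underactivation, and 4.13, 6.42 and 7.09 in N2. The N2 arrays had the largest spread of any group and gene of the 38 (SD 1.55), and the 95% interval of overactivation minus N2 ran from -2.30 to 1.11.

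At the replication fork, pcn-1, which encodes the PCNA clamp, had 5.87, 5.86 and 6.02 in overactivation, 4.83, 5.73 and 4.51 in underactivation, and 5.50, 5.37 and 5.39 in N2. Overactivation was above both other groups on every array, and underactivation spread on both sides of N2. The log2 difference of overactivation minus underactivation was 0.89 ± 0.29 (1.86-fold, adjusted p = 0.705, limma), and that of overactivation minus N2 was 0.50 ± 0.29. Without underactivation replicate 4 the difference from underactivation was 1.25.

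The ribonucleotide reductase genes rnr-1 and rnr-2, whose enzyme makes deoxynucleotides, were spread widely in N2. The large subunit gene rnr-1 had 6.45, 6.75 and 5.80 in overactivation, 6.03, 6.67 and 6.42 in underactivation, and 8.19, 5.98 and 6.45 in N2. For rnr-2, the small subunit gene, the signals were 6.31, 6.14 and 5.76 in overactivation, 5.21, 6.37 and 5.27 in underactivation, and 6.70, 4.43 and 5.85 in N2. N2 replicate 2 was the highest array for both genes, and the groups overlapped. The remaining replication genes were div-1 of the DNA polymerase alpha-primase, rpa-1 for a single-strand binding protein and top-2 for a topoisomerase. Their log2 differences ranged from -0.52 (top-2, overactivation minus N2) to 0.20 (div-1, overactivation minus underactivation), all with overlapping arrays.

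Underactivation was not uniform for the replication genes. Replicate 4 was the highest of the 3 underactivation arrays for 13 of the 15 replication genes (86.7%), whereas over all genes it was the highest for 31%. The median deviation of the 15 genes from their own means over 9 arrays was 0.15 on that array, against -0.45 on replicate 2 and -0.41 on replicate 5. In overactivation it was -0.01, 0.29 and -0.02 on replicates 1, 3 and 4, and in N2 it was -0.27, 0.00 and 0.07 on replicates 2, 3 and 4. The same array was the highest of its group for 18 of 31 other replication genes (58.1%) and for 7 of the 20 mitosis genes. On the seam cell and VPC markers it was the lowest of its group, with a median deviation of -0.67. On the body wall muscle markers it was 0.37, against -0.35 on replicate 2 and -0.36 on replicate 5, and on 3 heat shock markers 0.78, against 0.16 and -0.58. The part of this array's make-up in the result was not tested.

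**Figure D3:**
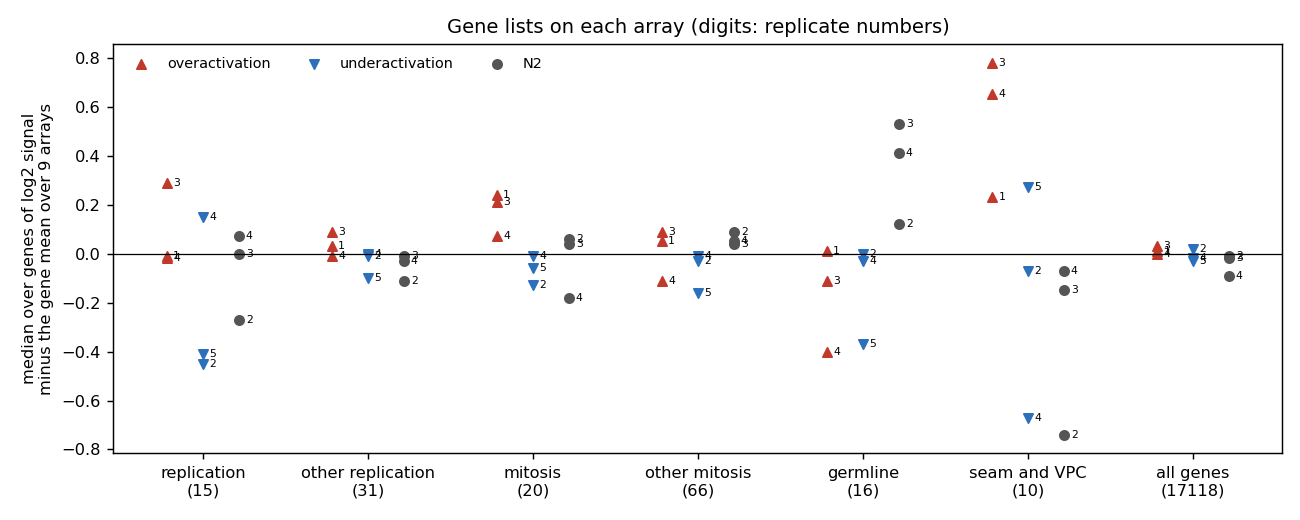
Median over the genes of a list of each array's log2 signal minus the gene's mean over 9 arrays, with replicate numbers beside the points and the number of genes under each list name; VPC stands for vulval precursor cell. Underactivation replicate 4 lies above the other underactivation arrays for the replication genes (0.15 against -0.45 and -0.41), and the germline list lies higher in N2 than in both tagged groups.

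Other genes of DNA replication, such as further origin recognition, polymerase, clamp loader and ligase genes, gave no call in any comparison for 31 measured of 33 listed. Their median log2 differences were 0.17 for overactivation minus N2, 0.04 for underactivation minus N2 and 0.07 for overactivation minus underactivation. Over all genes these medians were 0.07, 0.03 and 0.03. At an unadjusted p under 0.05, 5 of the 31 were higher and 2 lower in overactivation than in N2 (all genes 9.75% and 7.57%). The smallest adjusted p among them was 0.0688 in limma, for the DNA ligase gene lig-1 (log2 difference of overactivation minus N2 -0.98).

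The mitosis genes had a median log2 difference of 0.38 between overactivation and N2, with 13 of 20 above 0 and 7 below. Between underactivation and N2 the median was 0.10, with 12 above 0 and 8 below, and between overactivation and underactivation it was 0.19, with 16 above 0 and 4 below. Over all genes 57.8%, 53.9% and 54.7% were above 0 in these comparisons. Past 2-fold lay 4 of the 20 (20%) between overactivation and N2, against 11.9% of all genes, and 1 in each of the other comparisons (5%, against 8.64% and 3.66%). Among the 4, cdc-14 and cya-1 were not past 2-fold in that direction on their other probe sets. The median of 0.38 depended on which probe set represented a gene, as set out below for the genes with several.

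**Figure D4:**
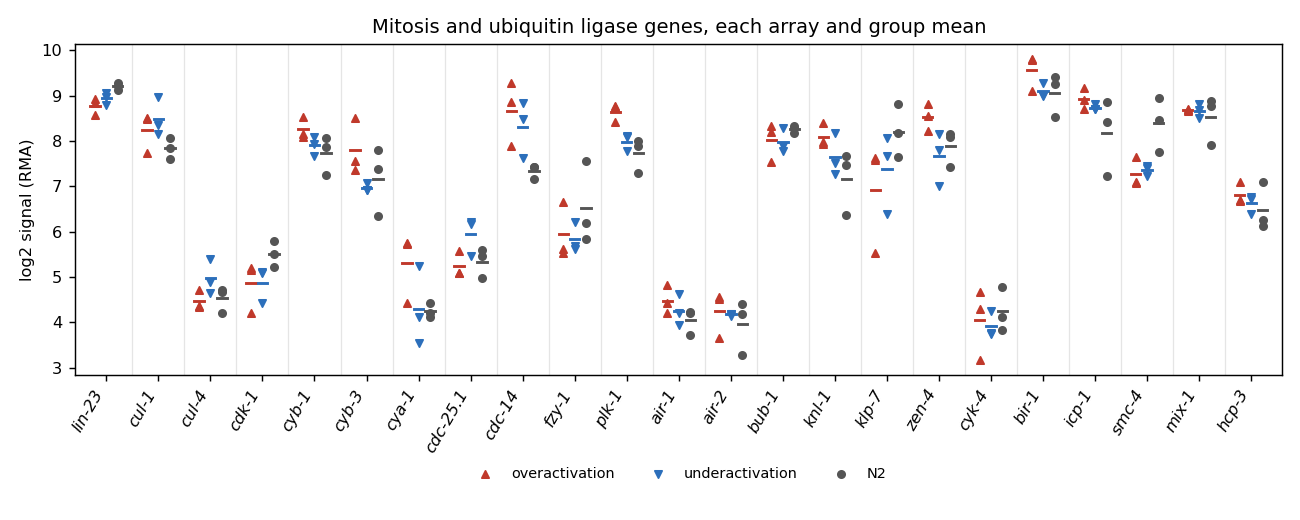
Log2 signal of the 20 mitosis and 3 ubiquitin ligase genes on each array (points) with group means (bars): red triangles overactivation, blue inverted triangles underactivation, grey circles N2. All overactivation arrays of plk-1 and cdc-14 lie above all N2 arrays, and all arrays of both tagged groups of smc-4 lie below N2.

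Over all 38 genes, the arrays of overactivation lay wholly above those of N2 for 9 and wholly below for 4, where 12.7% and 7.83% of all genes did so. For underactivation against N2 the counts were 2 above and 4 below (all genes 9.4% and 6.44%), and for overactivation against underactivation 5 above and 0 below (6.82% and 5.26%). The 9 were mcm-5, pcn-1, orc-2, cyb-1, cya-1, cdc-14, plk-1, knl-1 and zen-4, and the 4 were lin-23, cdk-1, klp-7 and smc-4. None of the other probe sets of orc-2, cyb-1, cya-1, cdc-14, plk-1, knl-1 and zen-4 lay wholly above N2. Their differences of overactivation minus N2 were -0.86 for orc-2, 0.29 and 0.0 for cyb-1, -0.04 for cya-1, 0.15 for plk-1 and -0.03 for zen-4. For cdc-14 and knl-1 they were negative, and another probe set had the higher mean in N2, as set out below. The chosen sets of these genes have numbers beginning with 17, and those of cdk-1, klp-7 and smc-4 begin with 19, kinds compared below.

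Of the kinases and cyclins that start mitosis, cdk-1, the mitotic kinase, had 5.15, 5.21 and 4.21 in overactivation, 4.42, 5.08 and 5.11 in underactivation, and 5.79, 5.22 and 5.51 in N2. Both tagged groups lay below N2, overactivation only just so at the closest pair. The log2 differences were -0.65 ± 0.32 for overactivation minus N2 and -0.64 ± 0.32 for underactivation minus N2 (adjusted p = 0.336 and 0.467, limma), and -0.01 between overactivation and underactivation. The difference of overactivation minus N2 was -0.33 without overactivation replicate 4, and that of underactivation minus N2 was -0.41 without underactivation replicate 2.

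The Polo-like kinase gene plk-1 had 8.76, 8.41 and 8.78 in overactivation, 7.77, 8.11 and 8.08 in underactivation, and 7.88, 8.0 and 7.30 in N2. Overactivation was above both other groups on every array, while underactivation overlapped N2. The log2 difference of overactivation minus N2 was 0.93 ± 0.23 (95% interval 0.40 to 1.45), a 1.90-fold higher mean with an adjusted p of 0.0845 (limma). That of overactivation minus underactivation was 0.67 ± 0.23 (1.59-fold, adjusted p = 0.764). Its second probe set gave 0.65 between overactivation and underactivation and 0.15 between overactivation and N2.

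The B-type cyclin gene cyb-3 had 8.50, 7.55 and 7.37 in overactivation, 7.08, 6.92 and 6.91 in underactivation, and 7.38, 7.80 and 6.34 in N2. Overactivation was above underactivation on every array and overlapped N2, and the log2 difference of overactivation minus underactivation was 0.84 ± 0.41 (1.79-fold, adjusted p = 0.906, limma), and 0.49 without overactivation replicate 1. The second probe set of cyb-3 gave 0.23 between these groups, with overlapping arrays. For cyb-1, another B-type cyclin gene, the differences were 0.53 for overactivation minus N2 and 0.18 for underactivation minus N2. The other probe sets of cyb-1 gave 0.29 and 0.0, and -0.07 and -0.14, in the same comparisons, with arrays that overlapped N2. The cyclin A gene cya-1 had 5.72, 4.43 and 5.76 in overactivation, 4.11, 3.55 and 5.25 in underactivation, and 4.20, 4.11 and 4.42 in N2. Its overactivation arrays were above N2, one of them only just, with a log2 difference of 1.06 ± 0.47 (adjusted p = 0.286).

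The phosphatase genes differed from each other. The gene cdc-25.1, whose product activates cyclin-dependent kinase, had a log2 difference of -0.70 ± 0.28 between overactivation and underactivation (adjusted p = 0.816, limma), and its differences from N2 were -0.09 in overactivation and 0.61 in underactivation. The gene cdc-14, for a phosphatase that acts against cyclin-dependent kinase, had 8.87, 7.88 and 9.27 in overactivation, 8.48, 7.62 and 8.84 in underactivation, and 7.42, 7.43 and 7.16 in N2. Both tagged groups were above N2 on every array. The log2 differences from N2 were 1.34 ± 0.40 in overactivation (2.53-fold, adjusted p = 0.131) and 0.98 ± 0.40 in underactivation (1.97-fold, adjusted p = 0.361).

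The other 5 probe sets of cdc-14 went the other way. Their log2 differences of overactivation minus N2 were -1.0 for each of a pair, -1.01, -1.36 and -1.40, and those of underactivation minus N2 ranged from -0.93 to -0.27. The probe set with the lowest of these had 4.81, 4.71 and 4.29 in overactivation, 5.33, 5.83 and 5.71 in underactivation, and 5.33, 6.00 and 6.69 in N2 (overactivation minus N2, adjusted p = 0.0788, limma). Its overactivation arrays lay below all others. No direction can be given for cdc-14 as a gene, and which transcript each probe set reads was not tested.

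At the kinetochore, knl-1, a scaffold of the outer kinetochore, had 8.40, 7.94 and 7.97 in overactivation, 8.17, 7.27 and 7.51 in underactivation, and 7.67, 6.36 and 7.47 in N2. Overactivation was above N2 on every array (log2 difference 0.93 ± 0.38, adjusted p = 0.239, limma), and underactivation overlapped both. Without N2 replicate 3 the difference was 0.53, and its second probe set gave -0.51 between the same groups. For klp-7, a microtubule-depolymerizing kinesin, the signals were 7.63, 7.59 and 5.52 in overactivation, 6.39, 8.07 and 7.66 in underactivation, and 7.64, 8.17 and 8.82 in N2. The overactivation arrays lay below N2, one of them only just and another, replicate 4, far below. The log2 difference was -1.29 ± 0.65 (adjusted p = 0.338), and -0.59 without overactivation replicate 4. The checkpoint kinase gene bub-1 and hcp-3, for the centromeric histone, had differences of -0.29 to 0.33 over the 3 comparisons.

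Centralspindlin, the complex that bundles the central spindle before cytokinesis, is made of the kinesin ZEN-4 and the GTPase-activating protein CYK-4. The zen-4 signals were 8.22, 8.81 and 8.56 in overactivation, 7.80, 7.01 and 8.15 in underactivation, and 8.10, 8.16 and 7.42 in N2. Overactivation was above both other groups on every array, and underactivation overlapped N2. The log2 difference of overactivation minus underactivation was 0.88 ± 0.33 (1.83-fold, adjusted p = 0.803, limma) and that of overactivation minus N2 was 0.64 ± 0.33 (adjusted p = 0.361). These were 0.55 without underactivation replicate 4 and 0.40 without N2 replicate 4. The second probe set gave 0.60 and -0.03. For cyk-4, with means of 4.06 in overactivation, 3.91 in underactivation and 4.24 in N2, no difference exceeded 0.33 in size.

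Among the condensin genes, which compact mitotic chromosomes, smc-4 had 7.65, 7.09 and 7.08 in overactivation, 7.44, 7.23 and 7.41 in underactivation, and 7.75, 8.94 and 8.46 in N2. Both tagged groups were below N2 on every array and overlapped each other. The log2 differences were -1.12 ± 0.31 for overactivation minus N2 (2.17-fold lower, adjusted p = 0.105, limma) and -1.02 ± 0.31 for underactivation minus N2 (2.03-fold lower, adjusted p = 0.215). Without N2 replicate 2 the difference for overactivation was -1.43 and passed the threshold, the single call of a gene of the 38 in any alternative. The brightest probe set of the condensin partner gene mix-1 gave 0.16 for overactivation minus N2, 0.15 for underactivation minus N2 and 0.02 between the tagged strains. Its other probe set gave -0.46, with overactivation below N2 on every array, -0.38 and -0.08 in the same comparisons. The gene smc-4 had 1 probe set, with a number beginning with 19, of the kind that ran less positive against N2, as set out below. The germline markers were also lower in the tagged strains, as given above, and their part in the smc-4 result was not tested.

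The chromosomal passenger genes, for Aurora B kinase (air-2), INCENP (icp-1) and survivin (bir-1), had log2 differences of overactivation minus N2 of 0.28, 0.75 and 0.50, with overlapping arrays. For underactivation minus N2 they were 0.22, 0.57 and 0.04. Those of icp-1 rested on N2 replicate 2, without which they were 0.28 and 0.10, and its other probe set gave 0.04 and -0.06. The Aurora A gene air-1 had 0.43 and 0.20, and fzy-1, for an activator of the anaphase-promoting complex, -0.59 and -0.70, or -0.08 and -0.18 without N2 replicate 3. None of these passed the test.

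The ubiquitin ligase genes were considered apart. The gene lin-23, for an F-box protein that in C. elegans restrains cell division, had 8.92, 8.84 and 8.58 in overactivation, 8.98, 8.79 and 9.07 in underactivation, and 9.21, 9.28 and 9.13 in N2. Both tagged groups were below N2 on every array, with log2 differences of -0.42 ± 0.17 (overactivation minus N2, adjusted p = 0.239, limma) and -0.26 ± 0.17 (underactivation minus N2, adjusted p = 0.605). The cullin scaffold gene cul-1 had 8.48, 8.51 and 7.74 in overactivation, 8.35, 8.16 and 8.97 in underactivation, and 8.06, 7.85 and 7.61 in N2. Underactivation was above N2 on every array (log2 difference 0.65 ± 0.29, adjusted p = 0.396, and 0.42 without underactivation replicate 5), but its second probe set gave -0.30. For cul-4, whose ligase degrades CDT-1 in S phase, the differences were -0.05, 0.45 and -0.50 in overactivation minus N2, underactivation minus N2 and overactivation minus underactivation.

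Of 66 measured mitosis genes outside the 38, 1 was called, higher in overactivation than in N2. Of all genes, 0.976% were called higher and 0.596% lower in that comparison. The kinetochore gene kbp-4 had 7.76, 7.16 and 7.37 in overactivation, against 5.62, 5.32 and 5.88 in N2, and the groups did not overlap. Its log2 difference was 1.82 ± 0.27 (3.54-fold, adjusted p = 0.0254, limma). In underactivation it had 7.35, 6.50 and 6.86, above N2 on every array with a difference of 1.3 that did not pass (adjusted p = 0.109, limma). The probe set read for kbp-4 has a number beginning with 17, the kind that ran more positive against N2, as set out below. The medians of the 66 genes were 0.02 for overactivation minus N2, -0.06 for underactivation minus N2 and 0.10 for overactivation minus underactivation.

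Probe sets of 1 gene differed from each other in a regular way. Over the 16 genes with several probe sets there were 21 other probe sets, and the brightest gave a more positive difference of overactivation minus N2 than 20 of them. The median was 0.58 for the brightest and -0.59 for the others. For underactivation minus N2 the count was 20 of 21 (medians 0.12 and -0.42), and for overactivation minus underactivation 17 of 21 (medians 0.40 and 0.06). Among all genes with several probe sets the brightest was the more positive in 65.4%, 62.4% and 59.8% of 3648 comparisons with another probe set. The brightest set was chosen on a mean over arrays that are mostly from tagged strains. The choice itself therefore favours probe sets that read higher in those strains. In N2 the chosen set of cdc-14 averaged 7.34 and another set 8.14, and for knl-1 the means were 7.17 and 7.63. For the other genes with several, the chosen set was also the brightest in N2.

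Opposite signs of at least 0.5 each, or a gap of more than 1 log2 unit, were met in overactivation minus N2 by 7 of the 16 genes. They were mcm-3 (0.65 and -1.03), orc-2 (0.47 and -0.86), cul-1 (0.40 and -0.72), cyb-3 (0.63 and -0.59), cya-1 (1.06 and -0.04), knl-1 (0.93 and -0.51) and cdc-14. For underactivation minus N2 there were 3, mcm-3, knl-1 and cdc-14, and for overactivation minus underactivation cdc-14 alone. The comparison between the tagged strains thus had the fewest such genes, although the counts were not tested against each other.

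**Figure D5:**
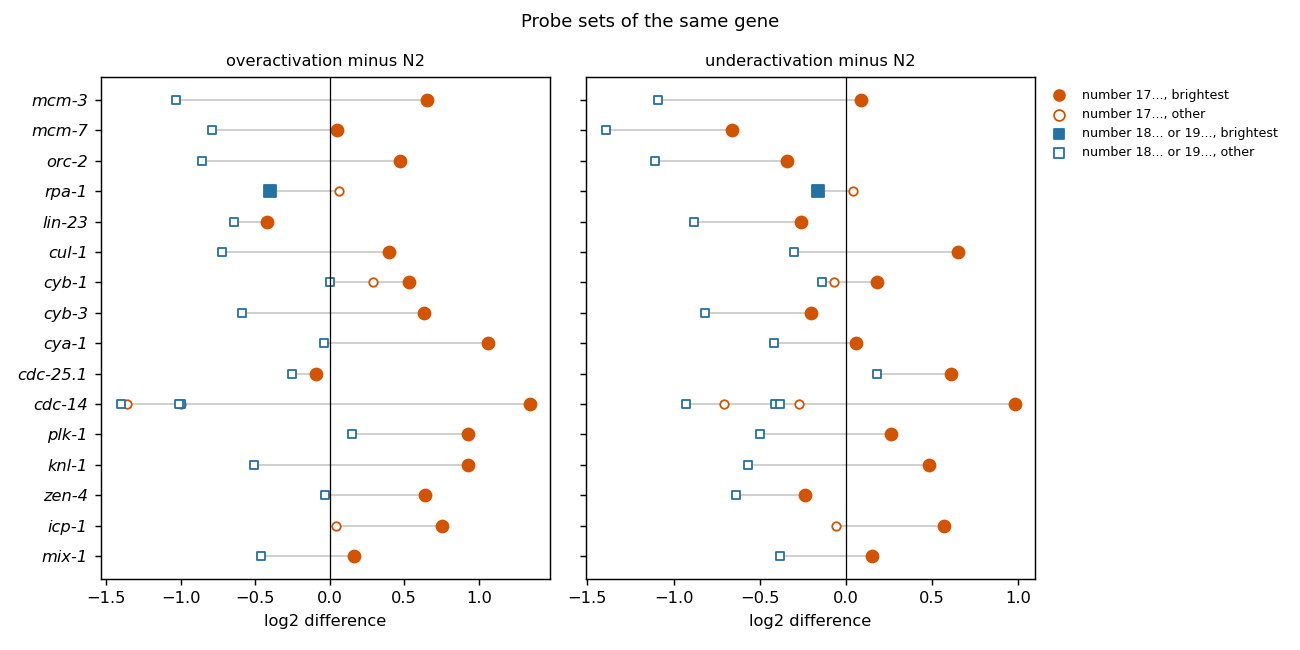
Log2 differences of overactivation minus N2 (left) and underactivation minus N2 (right) for every probe set of the 16 genes with more than 1; filled symbols are the brightest probe set of a gene, circles have a number that begins with 17 and squares one that begins with 18 or 19. The brightest probe sets lie to the right of the others for 15 of the 16 genes.

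The probe set numbers followed the same split. In the 15 genes that had both kinds, the differences were averaged over a gene's probe sets of each kind. For overactivation minus N2 the average was more positive for numbers beginning with 17 than for 18 or 19 in 15 of 15, by a median of 0.80. Over all 1907 genes with both kinds it was so in 79.9%, by a median of 0.55. For underactivation minus N2 the figures were 15 of 15 (0.61) and 73.6% (0.30), and for overactivation minus underactivation 13 of 15 (0.22) and 71.9% (0.22). Of the mitosis genes, the 10 whose brightest probe set was of the first kind had a median of 0.70 for overactivation minus N2, and the other 10 a median of -0.22. This grouping was chosen after the values were seen, and what the numbers stand for was not tested.

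The array controls for RNA integrity moved with the groups. The log2 signal of the 3′ actin probe set minus that of the 5′ one was 1.47 to 2.25 in overactivation and 0.90 to 2.35 in underactivation, against 0.67 to 0.91 in N2. For Gapdh it was 3.20 to 3.60 in overactivation and 2.87 to 4.06 in underactivation, against 2.02 to 2.96 in N2. The part of this in the differences from N2, or in the disagreement between probe sets, was not tested.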

How the data were processed

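The authors deposited log2 signals of the probe sets of 9 arrays, 3 for each of 3 groups, made by Robust Multichip Average in Partek (version not given in the sources used here). The labels describe cRNA made from total RNA and the methods amplified cDNA from coimmunoprecipitated mRNA; the signals do not decide between these. Columns of values not used numbered 0. Groups and replicate numbers came from the sample labels. Of 22625 probe sets, 77 array controls were left out. Through the array annotation 20766 of the other 22548 had 1 gene, 887 several and 895 none. No filter on low signal was used, so a difference is uncertain where all groups read low.

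Group means were fitted per probe set by lmFit in limma 3.58.1 (R 4.3.3) and variances were moderated by eBayes, which added 2.71 degrees of freedom to the 6 within groups. The test was two-sided, with Benjamini-Hochberg adjustment over all probe sets within each comparison. The limma fit of overactivation minus N2 was also run on simulated data, and the other steps were not. Figures were drawn with matplotlib 3.10.9 (Python 3.11.15). The genes and lists were chosen with earlier results of these data known. Genes were described in full where the arrays of a pair of groups did not overlap (at most 3 per comparison for replication and for mitosis, and 1 for the ligases) or where probe sets disagreed. The values of mcm-7, cdc-6, cdt-1, rnr-1 and rnr-2 were added after being seen. Alternatives were quantile normalization, median centring, leaving out the dimmest probe sets (the third with the lowest means), no moderation, trend and robust moderation, fitting only the groups compared, a replicate block, array weights, the mean over a gene's probe sets, leaving out each array, and each kind of probe set number alone, the last chosen after seeing the data. The probe and promoter sequences were not used here.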

Additional observations from a re-analysis of the deposited data

How the results depend on the processing

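No gene was called in 59 of 60 alternative counts (20 alternatives in each of 3 comparisons), of which those by probe set number covered 17 of the 38 genes (numbers beginning with 17) or 36 (18 or 19); without N2 replicate 2, smc-4 was called in overactivation minus N2 (-1.43), so that count ran from 0 to 1 when arrays were left out. Leaving out each array in turn, the median log2 difference of the replication genes ran from -0.34 to 0.12 in overactivation minus N2 (0.12 without N2 replicate 2, 0.10 without N2 replicate 4, 0.07 without overactivation replicate 1 and -0.34 without overactivation replicate 3), from -0.42 to -0.09 in underactivation minus N2 (-0.09 without N2 replicate 4, -0.14 without underactivation replicate 5) and from 0.16 to 0.34 in overactivation minus underactivation. For the mitosis genes it ran from 0.22 to 0.45, from -0.02 (without N2 replicate 4) to 0.12, and from 0.06 (without overactivation replicate 3) to 0.31 in the same comparisons. The choice of probe set also moved medians, which with numbers beginning with 17 rest on 5 replication and 10 mitosis genes and with 18 or 19 on 14 and 19. For the mitosis genes in overactivation minus N2 the median was 0.12 with the mean over probe sets, 0.70 with probe set numbers beginning with 17 and -0.24 with 18 or 19; in underactivation minus N2 it was -0.15, 0.22 and -0.41; in overactivation minus underactivation it was 0.41 with 17 and 0.10 with 18 or 19. For the replication genes it was 0.06 with 17 and -0.46 with 18 or 19 in overactivation minus N2, and 0.57 with 17 in overactivation minus underactivation; in underactivation minus N2, where it was -0.32, it was -0.40 with the mean over probe sets, -0.34 with 17 and -0.36 with 18 or 19, within the range over left-out arrays. Of 28 named differences under the alternatives, 23 values of 551 changed sign and 527 kept their direction and their side of the threshold. Many of the 551 could not change sign. The moderation settings, the filter on dim probe sets and the fit of only the groups compared leave a difference as it was. Leaving out an array of a group outside the comparison does so too. Since no gene was called in the main fit, the side of the threshold could change only through a new call. With the mean over probe sets the sign turned in overactivation minus N2 for cdc-14 (-0.74), cul-1 (-0.16), mcm-3 (-0.19) and orc-2 (-0.20), in underactivation minus N2 for cdc-14 (-0.29), knl-1 (-0.04) and mcm-3 (-0.50), and in overactivation minus underactivation for cdc-14 (-0.45). With numbers beginning with 18 or 19 it turned in overactivation minus N2 for cdc-14 (-1.0), cul-1 (-0.72), cya-1 (-0.04), cyb-3 (-0.59), knl-1 (-0.51), mcm-3 (-1.03), orc-2 (-0.86) and zen-4 (-0.03), in underactivation minus N2 for cdc-14 (-0.41), cul-1 (-0.30), knl-1 (-0.57) and mcm-3 (-1.09), and in overactivation minus underactivation for cdc-14 (-0.59). The mcm-3 difference of underactivation minus N2 was -0.09 without N2 replicate 4 and -0.01 without underactivation replicate 4, and ran up to 0.27 without other arrays. The cause of these changes was not tested. The correlations of deviations between arrays of different groups were -0.088 to 0.234 in 5 pairs with the same replicate number and -0.197 to 0.211 in 22 others. These ranges overlap and the same-number pairs are few, so they do not decide whether arrays with the same number were paired. With the replicate number as a block, no gene of the 38 was called, and the medians were -0.15, -0.07 and 0.33 for replication and 0.39, 0.05 and 0.19 for mitosis, in overactivation minus N2, underactivation minus N2 and overactivation minus underactivation.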
